A study of Homo sapiens with 6 samples.

Results

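The 10 genes described here encode the granins and the proteins that process prohormones in the regulated secretory pathway: CHGA, CHGB, SCG2, SCG3, SCG5, VGF, PCSK1N, PCSK1, PCSK2 and CPE. They were chosen by symbol in the deposited tables, which together list 32575 genes. All 10 had reads in at least 1 library, and all 10 were among the 28388 genes tested. The levels come from RNA sequencing libraries of SH-SY5Y, a human neuroblastoma line with catecholaminergic neuroblast properties. Its cells carried, from a lentivirus, a short hairpin RNA against CSA (gene ERCC8), against CSB (gene ERCC6) or a control hairpin. All 3 groups were transduced, selected with puromycin and grown for 2 to 3 weeks, and each group has 2 libraries. The labels call the groups WT, CSAmut and CSBmut, but the protocol describes hairpins, so the last of these are called the CSA knockdown and the CSB knockdown. CSA and CSB act together in transcription-coupled repair and are the proteins lost in Cockayne syndrome. The hairpin sequences, whether a group is 1 clone or a pool, and whether its libraries come from separate cultures are not stated in the labels. The p-values therefore measure the spread between these libraries, which may be technical.

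Granins are acidic, soluble proteins that aggregate in the trans-Golgi network and fill the core of secretory granules together with the hormones and amines to be released. Granins and prohormones are cut at paired basic residues by the convertases PC1/3 (gene PCSK1) and PC2 (gene PCSK2), and carboxypeptidase E (gene CPE) then trims the basic residues left at the new ends. The proteins 7B2 (gene SCG5) and proSAAS (gene PCSK1N) bind PC2 and PC1/3, the first as a chaperone and the second as an inhibitor. In sympathoadrenal cells, from which neuroblastoma arises, granins share the granules with catecholamines, and CHGA is a clinical marker of neuroendocrine tumours.

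Levels are scaled counts, which are reads per gene divided by one size factor per library. Fold changes are on the scale of log2(scaled count + 1), as log2 fold change ± SE. A change was called, as a rise or a fall, at an adjusted p below 0.05 in limma (Benjamini-Hochberg, over all genes tested). The libraries held 19368272 to 26758162 reads assigned to genes. ERCC8, the target of the CSA hairpin, went from 219 and 217 to 61.8 and 57.2 (-1.86 ± 0.13, adjusted p = 8.75e-07). ERCC6, the target of the CSB hairpin, went from 615 and 593 to 258 and 302 (-1.11 ± 0.08, adjusted p = 2.13e-06). Each target was thus lower in the libraries labelled for it. The 9 sympathoadrenal neuroblast markers followed, among them GATA3, HAND2 and DBH, all had reads in every library, with summed scaled counts of 94923 to 108365. That of 7 Schwann and glial markers was 113 to 151, and SOX10 and CDH19 had no reads. Of the neuroblast markers, TH had few reads, 14 and 21 in control, 5 and 3 in CSA and 8 and 14 in CSB libraries.

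In the CSA knockdown 4 of the 10 genes rose (CHGA, CHGB, SCG2 and SCG5) and 1 fell (VGF), that is 5 of 10 where 18.8% of all tested genes were called (8.37% as rises and 10.4% as falls). With CSB depleted 4 fell (CHGA, CHGB, SCG3 and SCG2) and 2 rose (PCSK1N and CPE), 6 of 10 against 23.6% of all tested genes (14.8% as rises and 8.86% as falls). The median log2 fold change of the 10 genes was 0.47 in the CSA knockdown and -0.19 in the CSB knockdown. Over all tested genes the medians were 0.00 and 0.10. With TMM scaling 1 rose and 5 fell there, the CPE call being lost and a VGF call gained, and the VGF call in the CSA knockdown was lost. Scaling also moved the split of all called genes in that comparison, of which 62.5% rose as deposited and 47.7% with TMM. Between the knockdowns, 5 of the 10 genes were lower in the CSB than in the CSA knockdown and 2 were higher, against 29.4% of all tested genes called (18.1% higher and 11.3% lower). In that comparison 61.5% of the called genes rose as deposited and 50.7% with TMM. These shares are over all tested genes, many of which have few reads and are called less readily. When genes needed a mean of at least 10 in a group, fewer were tested but more were called. They numbered 6219, 7580 and 8892 in the order above, against 5334, 6706 and 8340. The share among genes of like abundance was not computed, here or for the lists below. The 2 comparisons with control share the control libraries, so they are not independent. Since these are bulk libraries, fewer cells of a type and less RNA per cell cannot be told apart.

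**Figure D1:**
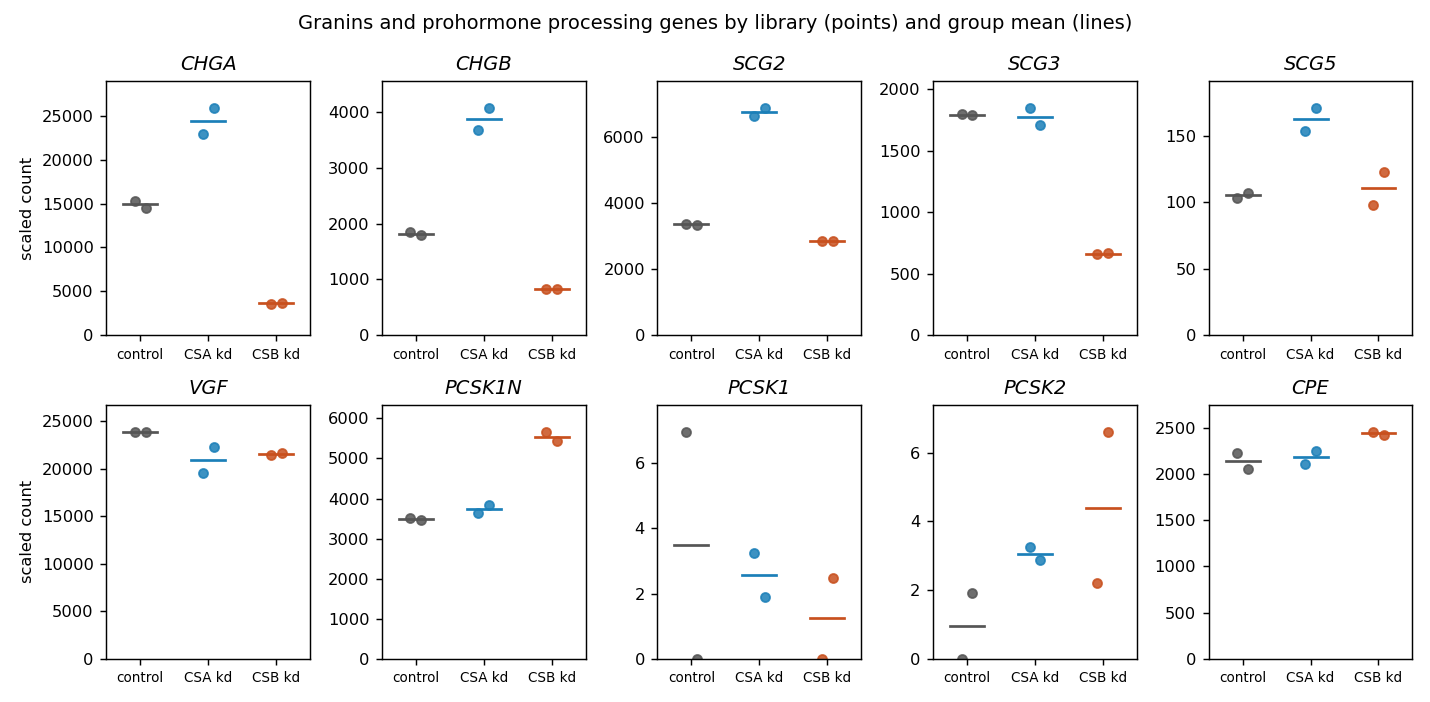
Scaled counts of the 10 genes, 1 panel per gene with its own axis from 0. Points are libraries, horizontal lines are means of the 2 libraries of a group, and kd stands for knockdown. CHGA, CHGB and SCG2 are highest in the CSA knockdown and lowest in the CSB knockdown, SCG3 is low in the CSB knockdown alone, and PCSK1 and PCSK2 stay below 7.

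CHGA encodes chromogranin A, the precursor of vasostatin and catestatin, and lies on the plus strand of chromosome 14 from 92923080 to 92935293 (hg38). The control libraries had scaled counts of 15330.3 and 14469, those depleted of CSA 22906 and 25867, and those depleted of CSB 3566 and 3681. The 3 groups did not overlap, and the share of all genes for which this holds was not counted. CHGA rose 1.63-fold in the CSA knockdown (0.71 ± 0.06, adjusted p = 6.58e-06) and fell to 0.243 of control in the CSB knockdown (-2.04 ± 0.06, adjusted p = 3.18e-09). Both calls held in all 18 alternative analyses. Among the 12083 genes that averaged 100 or more scaled counts, 16 including CHGA itself had a fold change in the CSB knockdown as low as that of CHGA, and 226 had a rise in the CSA knockdown at least as large.

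CHGB encodes chromogranin B, the other abundant granin of sympathoadrenal granules, and lies on the plus strand of chromosome 20 from 5911430 to 5925361. Control libraries read 1851 and 1792, CSA libraries 3687 and 4073 and CSB libraries 831 and 837. CHGB rose 2.13-fold in the CSA knockdown (1.09 ± 0.06, adjusted p = 1.60e-07) and fell to 0.458 of control in the CSB knockdown (-1.13 ± 0.06, adjusted p = 1.28e-07). Both CHGB calls held in all 18 alternatives. The rise was among the 76 largest of the 12083 genes and the fall among the 75 lowest.

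SCG2 encodes secretogranin II, the precursor of secretoneurin, and lies on chromosome 2 (minus strand) from 223596940 to 223602503. Control libraries read 3361 and 3345, CSA libraries 6640.0 and 6869 and CSB libraries 2857 and 2862. The CSA rise was 2.01-fold (1.01 ± 0.05, adjusted p = 5.26e-08) and held in all 18 alternatives. The CSB fall was far smaller, to 0.853 of control (-0.23 ± 0.05, adjusted p = 0.00341). That call ended without control replicate 1 or 2 (adjusted p = 0.0783 and 0.0757) or CSB replicate 1 or 2 (0.0687 and 0.0673), each time at a log2 fold change of -0.23. The SCG2 change was thus large in the CSA knockdown and small in the CSB knockdown.

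SCG3 encodes secretogranin III, which binds chromogranin A and the cholesterol-rich granule membrane, and lies on the plus strand of chromosome 15 from 51681353 to 51721031. SCG3 levels were 1799 and 1788 with the control hairpin, 1845 and 1709 with CSA depleted and 657 and 664 with CSB depleted. The CSA libraries lay on either side of the controls (-0.01 ± 0.06, 95% interval -0.14 to 0.11, adjusted p = 0.905). In the CSB knockdown SCG3 fell to 0.369 of control (-1.44 ± 0.06, adjusted p = 1.78e-08), a call that held in all 18 alternatives and a fold change among the 38 lowest of the 12083 genes. SCG3 is thus the granin that fell in the CSB knockdown without a called change in the CSA knockdown, and its CSB and CSA libraries differed directly as well (-1.42 ± 0.06, adjusted p = 3.94e-09). The noncoding genes RP11-313P18.2 and RP11-313P18.1 overlap SCG3 on the opposite strand, where the counting strand is not stated, and neither exceeded a scaled count of 4.34.

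VGF encodes a granin-like precursor that nerve growth factor induces, and lies on chromosome 7 (minus strand) from 101162509 to 101165593. VGF levels were 23847 and 23827 with the control hairpin, 19500.4 and 22290.0 with CSA depleted and 21386 and 21602 with CSB depleted. All 4 knockdown libraries were below both controls, by a small margin. The fall in the CSA knockdown (-0.19 ± 0.06, adjusted p = 0.0491) passed narrowly and was lost in 12 of 18 alternatives. Among these were the omission of control replicate 1 or 2 (adjusted p = 0.332 and 0.328), CSA replicate 1 (0.138, at a log2 fold change of -0.10) or CSB replicate 1 or 2 (0.251 and 0.248). With CSB depleted VGF did not pass (-0.15 ± 0.06, 95% interval -0.28 to -0.01, adjusted p = 0.111). That test pooled the spread of the 3 groups, and the CSA libraries varied most (SD 1972.5, against 14.4 for control and 153 for CSB). The fall did pass in 9 of 18 alternatives, for example with only the 2 groups compared (-0.15, adjusted p = 0.0326) or with TMM scaling (-0.23, adjusted p = 0.0220). The VGF differences from control were small in both knockdowns, and its CSB and CSA libraries did not differ by the test (0.04 ± 0.06, 95% interval -0.09 to 0.18, adjusted p = 0.654). That last difference had no stable sign, at -0.03 with TMM scaling and -0.05 without CSA replicate 1, and passed without CSA replicate 2 (0.14, adjusted p = 0.0449).

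The promoters of these genes were searched for 1 known element. The cyclic AMP response element, TGACGTCA, is a binding site of CREB and has long been studied in the CHGA and VGF promoters. In RefSeq (GRCh38.p14) 8 of the 10 genes have an entry in the promoter table, all but CHGB and SCG2. In the 250 bases before the start site, on both strands, the element was found in CHGA, VGF and PCSK1 (its first start) and not in SCG3, SCG5, PCSK1N, PCSK2 or CPE. The RefSeq start of CPE lies 17814 bases downstream of the deposited gene start, and those of PCSK1 895 and 1983 bases. These windows may therefore differ from the promoter of the gene as deposited. Of 35116 promoter windows of that length, 578 (1.65%) hold it. The windows of CHGA, VGF and PCSK1 are printed as those that hold the element, and that of SCG3 as one without it. They were picked with the levels of these genes known. Capitals mark the element, and each window is written 5′ to 3′ on the strand of its gene.
CHGA, chr14:92922900-92923149, plus strand: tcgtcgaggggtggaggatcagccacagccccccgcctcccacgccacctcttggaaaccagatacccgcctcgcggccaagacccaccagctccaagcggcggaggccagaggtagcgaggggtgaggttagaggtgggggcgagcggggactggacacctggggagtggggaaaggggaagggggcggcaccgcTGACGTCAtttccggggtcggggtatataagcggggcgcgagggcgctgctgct
VGF, chr7:101165570-101165819, minus strand: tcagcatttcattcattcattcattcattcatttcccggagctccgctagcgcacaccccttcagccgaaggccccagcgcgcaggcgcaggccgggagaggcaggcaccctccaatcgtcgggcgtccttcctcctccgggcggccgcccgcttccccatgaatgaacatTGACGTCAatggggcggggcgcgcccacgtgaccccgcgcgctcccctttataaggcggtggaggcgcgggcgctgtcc
PCSK1, chr5:96433249-96433498, minus strand: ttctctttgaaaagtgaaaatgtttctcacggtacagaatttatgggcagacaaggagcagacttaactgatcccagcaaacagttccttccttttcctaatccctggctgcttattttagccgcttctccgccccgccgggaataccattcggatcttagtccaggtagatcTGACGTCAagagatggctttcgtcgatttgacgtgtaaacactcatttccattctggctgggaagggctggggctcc
SCG3, chr15:51681253-51681502, plus strand: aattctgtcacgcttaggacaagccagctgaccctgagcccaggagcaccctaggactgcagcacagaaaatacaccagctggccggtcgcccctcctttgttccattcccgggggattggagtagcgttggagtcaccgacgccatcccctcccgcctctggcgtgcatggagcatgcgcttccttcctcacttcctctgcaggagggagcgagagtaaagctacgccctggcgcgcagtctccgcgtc
The first base of the element lies 54 bases before the start site in CHGA, 79 in VGF and 77 in PCSK1. Its core, TGACG, which is part of the full element and was also searched on both strands, occurs in 6 of the 8 genes. CHGA, VGF and PCSK1, with the full element, are among these. Of all windows 21.2% hold the core, a share per window, whereas PCSK1 and PCSK2 have 2 windows each and count once. A match is a description of the letters, and binding was not measured. CHGA, with the element, fell to 0.243 of control in the CSB knockdown, and SCG3 without it in this window fell to 0.369. VGF, with the element, was at 0.902 of control there, which did not pass the main test but passed in 9 of 18 alternatives. Whether the element has a part in these levels was not tested, and CHGB and SCG2 have no window to compare.

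SCG5 encodes 7B2, the chaperone that PC2 needs to mature, and lies on the plus strand of chromosome 15 from 32641676 to 32697098. It shares that chromosome with SCG3, at a gap of 18984254 bases. SCG5 levels were 103 and 107 with the control hairpin, 154 and 171 with CSA depleted and 98.0 and 123 with CSB depleted. The CSA libraries were above all others, and the CSB libraries enclosed the controls. SCG5 rose 1.54-fold in the CSA knockdown (0.62 ± 0.14, adjusted p = 0.00895), a call lost without control replicate 1 or 2 (adjusted p = 0.156 and 0.136) or CSA replicate 1 or 2 (0.102 and 0.155). With CSB depleted it did not pass (0.06 ± 0.14, 95% interval -0.25 to 0.37, adjusted p = 0.817). SCG5 was the least abundant member with more than a few reads, and its interval is accordingly the widest among those 8 genes.

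PCSK1N encodes proSAAS, a granin-like protein that inhibits PC1/3, and lies on the X chromosome (minus strand) from 48831094 to 48835633. Control libraries read 3502 and 3476, CSA libraries 3634 and 3845 and CSB libraries 5661 and 5434. Both CSB libraries were far above the other 4. PCSK1N rose 1.59-fold in the CSB knockdown (0.67 ± 0.05, adjusted p = 2.08e-06), a call that held in all 18 alternatives, and 576 of the 12083 genes rose at least as much. The CSA difference did not pass (0.10 ± 0.05, 95% interval -0.01 to 0.21, adjusted p = 0.214). PCSK1N thus moved against CHGA, CHGB and SCG3 in the CSB knockdown.

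The convertases themselves were almost without reads. PCSK1, on chromosome 5 (minus strand) from 96390415 to 96434143, had 7 and 0 control reads, 3 and 2 CSA reads and 0 and 3 CSB reads. PCSK2, on the plus strand of chromosome 20 from 17226107 to 17484578, had 0 and 2 control reads, 3 and 3 CSA reads and 2 and 8 CSB reads. So few reads leave wide intervals, and even large changes could go undetected at this depth. For PCSK1 the 95% intervals were -1.70 to 2.33 in the CSA and -2.61 to 1.42 in the CSB knockdown. For PCSK2 in the CSA knockdown it was -0.26 to 2.74. Neither gene passed in a comparison with control (adjusted p = 0.865 and 0.706 for PCSK1, 0.262 and 0.141 for PCSK2, in the CSA and CSB knockdown). For PCSK2 in the CSB knockdown the 95% interval ran from 0.03 to 3.03, with an unadjusted limma p of 0.0466. Transcripts of 7B2 and proSAAS, the binding partners of the convertases, were therefore present at 98.0 to 5661 scaled counts in cells with next to no transcript of either convertase.

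CPE encodes carboxypeptidase E and lies on the plus strand of chromosome 4 from 165361194 to 165498320. CPE levels were 2223 and 2058 with the control hairpin, 2107 and 2253 with CSA depleted and 2455 and 2427 with CSB depleted. The CSA and control libraries overlapped (0.03 ± 0.06, 95% interval -0.10 to 0.15, adjusted p = 0.813). Both CSB libraries were higher, 1.14-fold (0.19 ± 0.06, adjusted p = 0.0299). This small rise was lost in 13 of 18 alternatives, among them TMM scaling (0.11, adjusted p = 0.200) and the omission of any one library. Its adjusted p was then 0.0922 without the first and 0.273 without the second control library, 0.0740 and 0.0746 likewise for CSA, and 0.247 and 0.214 for CSB.

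**Figure D2:**
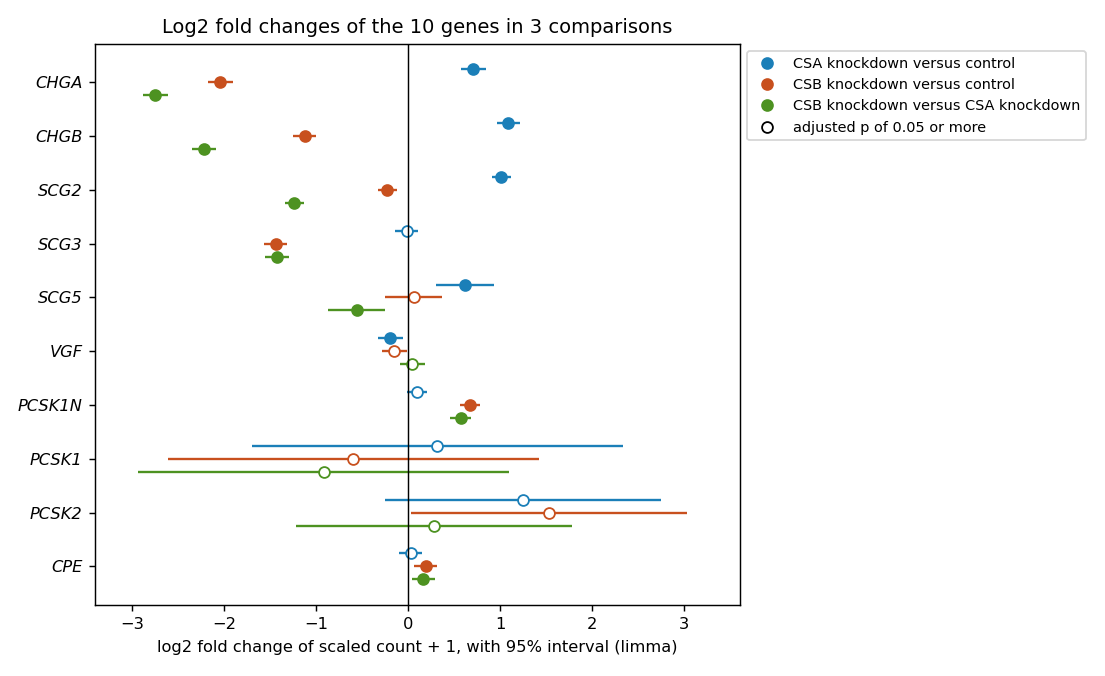
Log2 fold changes of the 10 genes in the 3 comparisons, with 95% intervals from limma. Filled points passed the test at an adjusted p below 0.05 and open points did not. The falls of CHGA, CHGB and SCG3 in the CSB knockdown (-2.04, -1.13 and -1.44) and the rises of CHGB and SCG2 in the CSA knockdown (1.09 and 1.01) stand clear of 0, and the intervals of PCSK1 and PCSK2 span more than 2 log2 units.

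Set directly against each other, the knockdowns differed most in CHGA, which was at 0.149 of its CSA level in the CSB knockdown (-2.75 ± 0.06, adjusted p = 4.91e-11). CHGB followed at 0.215 (-2.22 ± 0.06, adjusted p = 1.33e-10), SCG3 at 0.372 and SCG2 at 0.423 (-1.24 ± 0.05, adjusted p = 2.29e-09). These 4 granins and PCSK1N (0.57 ± 0.05, adjusted p = 2.94e-06) were called in all 18 alternatives. SCG5 was lower in the CSB knockdown (-0.56 ± 0.14, adjusted p = 0.0101). The SCG5 call ended without control replicate 1 or 2 (adjusted p = 0.0610 and 0.0614), CSA replicate 1 or 2 (0.0899 and 0.147) or CSB replicate 1 (0.115). CPE passed narrowly (0.16 ± 0.06, adjusted p = 0.0488) and was lost in 16 of 18 alternatives, with adjusted p up to 0.480 by DESeq2. It was lost without each of the 6 libraries in turn, with adjusted p from 0.0855 without CSA replicate 2 to 0.274 without CSB replicate 1.

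Per kilobase of transcript, the controls ranked VGF first at 8816 ± 5.32 (SD, n = 2), the 60th most abundant of 16555 protein-coding genes. CHGA came next at 4803 ± 196 and PCSK1N after it at 2560.0 ± 13.4. SCG2 stood at 1233 ± 4.09, CPE at 724 ± 39.3, SCG3 at 541 ± 2.34 and CHGB at 402 ± 9.17. Each of these levels was separated from the next by more than the spread of its libraries. SCG5 (47.9 ± 1.17) lay well below, and PCSK1 (0.656) and PCSK2 (0.136) at the bottom could not be ordered. In the CSA knockdown CHGA drew level with VGF, at 7862 ± 675 and 7728 ± 729, a difference within their spread. With CSB depleted the order was VGF (7949 ± 56.6), PCSK1N (4070.3 ± 118), CHGA (1168 ± 26.2) and SCG2 (1052 ± 1.28), and CHGA had gone from rank 112 to rank 589. There SCG3 (199 ± 1.46) and CHGB (184 ± 0.829) lay well below CPE (825 ± 6.70), whereas in the CSA knockdown CHGB (856 ± 60.1) lay above CPE (737 ± 34.8).

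The make-up of the transcript pool of these 10 genes changed with it. CHGA made up 29.5 and 28.4% of their summed scaled counts with the control hairpin, 37.9 and 38.6% with CSA depleted and 9.51 and 9.78% with CSB depleted. VGF made up 45.8 and 46.8%, 32.2 and 33.2%, and 57.0 and 57.4% in the same order. By scaled counts the pool was thus led by VGF in the controls and more so in the CSB knockdown. CHGA led it in the CSA knockdown. These counts are not divided by gene length, and per kilobase CHGA and VGF were level in the CSA knockdown. The 10 genes together took 0.246 and 0.240% of all scaled counts with the control hairpin, 0.288 and 0.315% with CSA depleted and 0.170 and 0.171% with CSB depleted. Per kilobase, CHGA stood at 0.560 and 0.529 of VGF with the control hairpin, 1.02 and 1.01 with CSA depleted and 0.145 and 0.149 with CSB depleted. These ratios within a library do not depend on how the libraries were scaled. The ratio of PCSK1N to CPE per kilobase was 3.42 and 3.67 with the control hairpin, 3.74 and 3.70 with CSA depleted, and higher with CSB depleted, at 5.004 and 4.86.

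**Figure D3:**
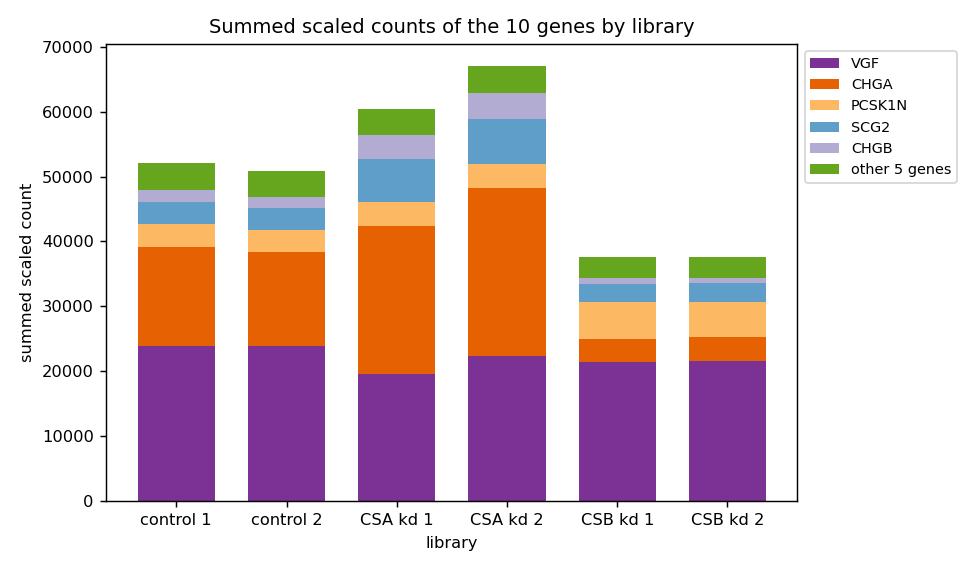
Summed scaled counts of the 10 genes in each of the 6 libraries, stacked by gene from 0, with kd for knockdown. The sums are 52025 and 50865 for control, 60481 and 67082 for CSA and 37514 and 37639.7 for CSB, and the CHGA segment changes most.

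The machinery that forms, moves and releases dense-core vesicles was followed in a list of 37 genes. In the CSA knockdown 20 rose and 5 fell, with a median of 0.24, where 8.37% of all tested genes rose and 10.4% fell. With any one library left out 10 to 13 rose and 3 to 4 fell (fewest rises without control replicate 2). With CSB depleted 8 rose and 16 fell, with a median of -0.17, where 14.8% of all tested genes rose and 8.86% fell. With any one library left out 0 to 8 rose and 8 to 15 fell, the fewest rises without CSB replicate 1 and the fewest falls without control replicate 2. RAB27B, a small GTPase that docks secretory granules, read 40.8 and 44.4 with the control hairpin, 250.4 and 237 with CSA depleted and 12.1 and 9.08 with CSB depleted. It rose in the first (2.49 ± 0.21, adjusted p = 6.26e-06) and fell in the second (-1.92 ± 0.21, adjusted p = 4.14e-05), in all 18 alternatives each. Its paralog RAB27A had 111 and 131 with the control hairpin, 84.5 and 76.3 with CSA depleted and 189 and 181 with CSB depleted. The RAB27A changes ran the other way (-0.58 ± 0.14, adjusted p = 0.00942, and 0.61 ± 0.14, adjusted p = 0.00586). The first was lost with the omission of any one library (adjusted p 0.0602 to 0.141) and the second without control replicate 1 (0.100), CSB replicate 1 (0.136) or CSB replicate 2 (0.112).

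Among the fusion proteins of that list, the SNARE SNAP25 fell in the CSB knockdown from 2703 and 2776 to 933 and 907 (-1.57 ± 0.05, adjusted p = 6.45e-09). The vesicle synaptotagmin SYT4 fell in the CSA knockdown, from 9100 and 9209 to 6229 and 5863 (-0.60 ± 0.05, adjusted p = 4.32e-06), against the direction of most of its list. Its fall in the CSB knockdown was larger, to 3989 and 3909 (-1.21 ± 0.05, adjusted p = 1.92e-08), and both calls held in all 18 alternatives. SYT9 rose in the CSB knockdown (0.65 ± 0.11, adjusted p = 8.56e-04), a call that ended without control replicate 2 (adjusted p = 0.0595) or CSB replicate 1 (0.0592). CADPS2, which primes vesicles for release, rose in the CSA knockdown on very few reads, which numbered 2 in control and 18 in CSA libraries. The ratio was 9.32 (95% interval 2.23 to 82.9, counting error only), and its call (2.29 ± 0.60, adjusted p = 0.0191) was lost without any one of the 6 libraries (adjusted p 0.0551 to 0.140).

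Other enzymes that trim, cut or amidate peptides were followed in a list of 14, of which 12 were tested. In the CSA knockdown 3 rose and 2 fell, with a median of 0.21, where 8.37% of all tested genes rose and 10.4% fell. With CSB depleted 4 rose and 1 fell, with a median of 0.27, where 14.8% of all tested genes rose and 8.86% fell. With any one library left out the CSA rises numbered 0 to 2 (fewest without control replicate 1) and the CSB rises 0 to 4 (fewest without control replicate 2). PAM, which amidates the ends of neuropeptides, rose in the CSA knockdown from 1980.3 and 2088 to 3298 and 2904 (0.61 ± 0.07, adjusted p = 9.01e-05). The PAM call ended without control replicate 1 (adjusted p = 0.0659), control replicate 2 (0.0511) or CSA replicate 1 (0.0551). PCSK7, a convertase of the constitutive pathway, rose there as well (0.45 ± 0.06, adjusted p = 2.15e-04; 0.0584 without control replicate 1). The carboxypeptidase CPD of the trans-Golgi network fell in both knockdowns, by 0.26 in the CSA (adjusted p = 0.00408) and by 0.54 in the CSB knockdown (adjusted p = 1.73e-05). The CPD call in the CSA knockdown ended without control replicate 1 (adjusted p = 0.0978), control replicate 2 (0.0996) or CSA replicate 2 (0.0558).

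Of the remaining enzymes, the glutaminyl cyclase QPCTL fell in the CSA knockdown (-0.41 ± 0.10, adjusted p = 0.00917), a call lost without control replicate 1 or 2 (0.136 and 0.0870), CSA replicate 1 (0.0715) or CSB replicate 1 or 2 (0.0727 and 0.0732). PCSK4 rose in the CSB knockdown (0.71 ± 0.10, adjusted p = 2.66e-04), a call lost without control replicate 2 (0.0592), CSB replicate 1 (0.0956) or CSB replicate 2 (0.0878). CPM, a membrane carboxypeptidase, rose there from 2 and 2 reads to 8 and 12 (1.80 ± 0.53, adjusted p = 0.0262). Its call was lost without either control library (0.110 and 0.117) or either CSB library (0.0993 and 0.109).

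Among the cargo, 26 of 35 listed peptide precursors had an entry in the tables and 23 were tested. In the CSA knockdown 4 rose and 6 fell, with a median of -0.28, where 8.37% of all tested genes rose and 10.4% fell. In the CSB knockdown 1 rose and 3 fell, with a median of -0.04, and these 17.4% called lie below the 23.6% of all tested genes. With any one library left out, 1 to 2 rose and 2 to 5 fell in the CSA knockdown, both fewest without control replicate 1. With CSB depleted 0 to 1 rose (fewest without control replicate 2) and 1 to 2 fell (fewest without CSB replicate 1). GAL, which encodes galanin, fell in the CSB knockdown from 1164 and 1184 to 600.0 and 560.2 (-1.02 ± 0.06, adjusted p = 3.26e-07). BDNF rose there from 29.8 and 24.1 to 52.8 and 54.5 (0.97 ± 0.25, adjusted p = 0.0131), a call lost without any control or CSB library (adjusted p 0.0591 to 0.125).

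The largest CSA changes in precursors were of genes with few reads. CRH, the precursor of corticotropin-releasing hormone, went from 3 and 2 reads to 20 and 17 (2.53 ± 0.56, adjusted p = 0.00730), and the call was lost without either control or either CSA library (0.0731 to 0.112). CARTPT had 0 control reads and 2 and 6 CSA reads, too few for a fold (adjusted p = 0.0338; 0.0554 to 0.178 without any one library). TAC3, the neurokinin B precursor, fell in both knockdowns, from 30 and 43 reads to 4 and 9 in the CSA (-2.34 ± 0.40, adjusted p = 0.00129) and 12 and 18 in the CSB knockdown (-1.27 ± 0.40, adjusted p = 0.0385). The first TAC3 call was lost without every library but CSA replicate 2 (0.0549 to 0.0933) and the second without any one (0.0574 to 0.275). AGRP went from 9 control reads to 1 CSA read (ratio 0.115, 95% interval 0.00263 to 0.831; adjusted p = 0.0306; 0.0972 to 0.184 without any library but CSA replicate 2). NPY and VIP, chosen after their values were seen because they are abundant, moved apart in the CSA knockdown. NPY rose from 595 and 641 to 1506 and 1363 (1.21 ± 0.07, adjusted p = 2.86e-07). VIP fell from 3988 and 4025 to 1554 and 1520.1 (-1.38 ± 0.05, adjusted p = 1.01e-08), and both calls held in all 18 alternatives.

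**Figure D4:**
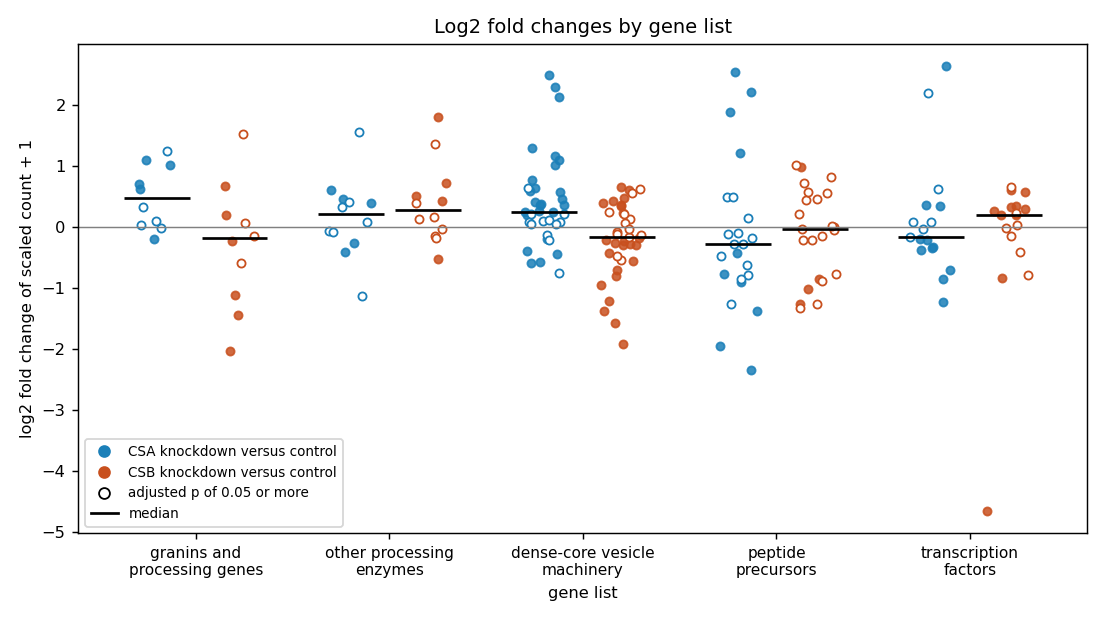
Log2 fold changes against control for the 10 genes and 4 related lists, with the CSA knockdown to the left and the CSB knockdown to the right in each pair. Each point is a gene, filled where it passed the test, and black lines are medians, which for the vesicle machinery are 0.24 and -0.17.

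Regulators known to act on granin and other neuroendocrine genes formed a list of 17, with transcription factors, their corepressors and coactivators, and a splicing regulator. In the CSA knockdown 3 rose and 8 fell, with a median of -0.16, where 8.37% of all tested genes rose and 10.4% fell. The CSB knockdown had 8 rises and 2 falls, with a median of 0.19, where 14.8% of all tested genes rose and 8.86% fell. With TMM scaling the CSB counts were 5 and 2. With any one library left out, 1 to 2 rose (fewest without control replicate 2) and 3 to 5 fell (fewest without control replicate 1) in the CSA knockdown, and 1 to 7 rose in the CSB knockdown (fewest without CSB replicate 1). INSM2, a zinc finger repressor related to the neuroendocrine factor INSM1, read 399.8 and 406 with the control hairpin, 2506 and 2502 with CSA depleted and 14.3 and 15.7 with CSB depleted. It rose by 2.63 ± 0.09 (adjusted p = 6.84e-09) and fell by 4.66 ± 0.09 (adjusted p = 4.91e-11), with both calls in all 18 alternatives. Its groups stood in the order of those of CHGA and CHGB.

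EGR1, an immediate-early zinc finger factor, fell in the CSA knockdown from 567 and 581 to 292 and 346 (-0.85 ± 0.08, adjusted p = 1.96e-05). FOS fell with it, from 52.7 and 45.3 to 19.5 and 20.98 (-1.23 ± 0.22, adjusted p = 0.00195), a call lost without either control or either CSA library (0.0530 to 0.0774). The CREB coactivator CRTC2 rose in the CSA knockdown (0.37 ± 0.06, adjusted p = 5.54e-04; 0.0555 without control replicate 2). CRTC1 (0.57 ± 0.06, adjusted p = 3.28e-05; 0.0552 without CSB replicate 2) and JUN (0.60 ± 0.06, adjusted p = 1.79e-05; 0.0523 without CSB replicate 1) rose in the CSB knockdown. REST, which represses neuronal genes, granin genes among them, is named after its values were seen. REST levels were 1231 and 1159 with the control hairpin, 759.8 and 705 with CSA depleted and 1356 and 1502 with CSB depleted. REST fell in the CSA knockdown in all 18 alternatives (-0.71 ± 0.07, adjusted p = 1.65e-05). Its rise in the CSB knockdown (0.26 ± 0.07, adjusted p = 0.0169) was lost in 11 of 18, among them TMM scaling (adjusted p = 0.102) and the omission of any one library (0.0843 to 0.236).

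Markers of other cell states moved as well. The 9 fibroblast and mesenchymal markers had summed scaled counts of 19618 and 18402 with the control hairpin, 13922 and 14125 with CSA depleted and 29072 and 29239 with CSB depleted. All 9 had reads in every library. Of these, 4 fell in the CSA knockdown and 6 rose in the CSB knockdown, where 10.4% of all tested genes fell and 14.8% rose. With TMM scaling the counts were again 4 and 6. With any one library left out 2 to 3 fell in the first (fewest without control replicate 1) and 4 to 5 rose in the second (fewest without CSB replicate 1). The sum ran opposite to CHGA, CHGB and SCG2 over the 3 groups, and its part in their levels was not tested. The sum was weighted to its most abundant genes, COL3A1 and TWIST1. COL3A1 fell in the CSA knockdown (mean 7588 to 4010) and was not called in the CSB knockdown (7981). TWIST1 rose in the CSB knockdown (6545 to 13085) and was not called in the CSA knockdown (6011). Only COL1A1 and PDGFRB were called in both. The summed neuroblast markers were 98199.5 and 94923 with the control hairpin, 100218 and 105163 with CSA depleted and 107516 and 108365 with CSB depleted. Its members moved in both directions, 3 up and 3 down in the CSA knockdown and 4 up and 1 down in the CSB knockdown (2 and 3 with TMM scaling). Over all tested genes 8.37% rose and 10.4% fell in the CSA knockdown, and 14.8% rose and 8.86% fell in the CSB knockdown. Omitting any one library, 2 rose and 0 to 2 fell in the first (fewest falls without control replicate 1), and 0 to 4 rose and 0 to 1 fell in the second (fewest without control replicate 2). Epithelial markers summed to 220 to 269, with 1 of 5 tested up and 1 down in the CSA knockdown, against 8.37% and 10.4% of all tested genes. Immune and endothelial markers summed to 7.71 to 18.1.

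The genes whose profiles over the 6 libraries lay nearest to those of each member were found among the 12075 other genes averaging 100 or more scaled counts, by the Euclidean distance between centred log2 profiles. This likeness is a description over 6 libraries. For CHGA they were DLK1 (distance 0.417), a transmembrane protein of immature chromaffin cells, and GAP43 (0.445), a growth cone protein. DLK1 had mean scaled counts of 909, 1745 and 285 in control, CSA and CSB libraries. For CHGB they were the kinase DCLK3 (0.238) and the microtubule-associated EML6 (0.340). For SCG2 they were PRCD (0.136) and the neuronal microtubule protein DCX (0.146), with 976, 1816 and 792 in the 3 groups. RUNDC3B (0.169) and the mitochondrial hydratase ECHS1 (0.205) were nearest to SCG3, and ECHS1 had 1976, 2221.5 and 750.0. POU2F2 (0.134) and a lincRNA (0.174) were nearest to SCG5, UCHL5 (0.0335) and RNF26 (0.0478) to VGF, GNB3 (0.0719) and ZNF383 (0.0732) to PCSK1N, and HDAC7 (0.0444) and DPP7 (0.0551) to CPE. Within the group, VGF and CPE were nearest to each other (0.360) and CHGA and PCSK1N farthest apart (3.53). A small distance also arises between genes that change little, whichever way they move. In the CSB knockdown the log2 fold change of VGF was -0.15 and that of CPE 0.19.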

How the data were processed

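SH-SY5Y libraries of 3 groups, 2 each, were compared (CSA knockdown with control, CSB knockdown with control, CSB with CSA knockdown). Per the submitters' processing notes, FastQC and HISAT2 2.0.4 were used with build hg38. The counter, its strand setting and its annotation were not given in the sources used here, so overlapping and antisense genes are uncertain. The column header says FPKM, but the values the authors deposited are a signal, namely read counts divided by 1 size factor per library, with no gene length in them. Dividing each value by the library's smallest one gave whole reads in 100% of cases (tolerance 0.01). A gene without an entry was taken as 0. The deposited gene length was used for levels per kilobase.

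limma 3.58.1 (R 4.3.3) with a mean-variance trend was fitted to log2(scaled count + 1), computed from the deposited values, for 28388 genes with a mean of at least 1 in at least 1 group, all 6 libraries in 1 fit with 3 residual degrees of freedom. A pseudocount of 1 understates fold changes of genes with few reads. Adjusted p is by Benjamini-Hochberg over all genes tested, and every adjusted p is from limma unless another tool is named. Count tests on the recovered reads called 6119, 7268 and 8931 genes (edgeR 4.0.16, quasi-likelihood) in the order of comparisons above, and 4112, 5064 and 6492 with DESeq2 1.42.0. Other alternatives were other pseudocounts (0.5 and 10), filters, scalings and models, a replicate block and the omission of each library, 18 in all. The main limma fit was tested on reads simulated for the CSB knockdown against control, with 200 genes changed and a dispersion of 0.005. That is fewer changed genes than were called here, and the alternatives were not tested in this way. Read ratios carry exact 95% intervals, which like the limit of 3 reads cover counting error only.

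Replicates of each group differed by more than sampling noise (chi-square per degree of freedom 1.95 for control, 5.06 for CSA and 2.66 for CSB). Mitochondrial transcripts took 5.73 to 6.51% of scaled counts. Named genes were the 10 members, ERCC8, ERCC6, up to 2 of the largest rises and falls past the threshold per list and comparison with control, and for each member with a mean of at least 100 the 2 genes of nearest profile. The members and lists were chosen with earlier results of these data known. A gene that this rule selects is not reported here. EIPR1 is deposited as TSSC1. Promoter sequences are from RefSeq (GRCh38.p14), and protein sequences were not used here.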

Additional observations from a re-analysis of the deposited data

How the results depend on the processing

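All called changes of the members, ERCC8, ERCC6 and the genes named from the 4 related lists kept their direction in the alternatives. The genes of nearest profile, and COL3A1, TWIST1, COL1A1 and PDGFRB, were not followed there gene by gene. Some differences that were not called changed sign, among them VGF between the knockdowns (0.04, and -0.03 with TMM scaling). Of the called members, 3 of 5 in the CSA knockdown, 4 of 6 in the CSB knockdown and 5 of 7 between the knockdowns passed in all 18. The member counts ranged, with 1 library left out, from 3 to 4 in the CSA knockdown (3 without control replicate 1, control replicate 2 or CSA replicate 1), 4 to 6 in the CSB knockdown and 5 to 6 between the knockdowns. Over all genes, 5334 were called in the CSA knockdown, and 2460 with only the 2 groups compared in the fit. Leaving out 1 library gave 1512 to 2882 genes in the CSA knockdown (fewest without control replicate 2), 1907 to 5451 in the CSB knockdown (fewest without CSB replicate 1) and 4003 to 6268 between the knockdowns (fewest without CSB replicate 1). A lone library was then assumed to vary like the other groups, and fewer residual degrees of freedom remained. PCSK1 and PCSK2 are limited by depth, with at most 8 reads in any library.

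The labels number the replicates but do not say whether the number pairs them. Same-numbered libraries did not deviate together (correlations of -0.040, -0.032 and -0.032 over 13397 genes). A correlation over so many genes cannot exclude pairing that affects only some of them. With a replicate block 5259, 6575 and 8258 genes and 4, 6 and 6 members were called in the CSA, CSB and direct comparison. Among members the block ended 2 calls, VGF in the CSA knockdown (adjusted p = 0.0553) and CPE between the knockdowns (0.0638).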
